A study of Mus musculus with 9 samples.

Results

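The 9 genes described here are Axin2, Rnf43, Znrf3, Lgr4, Nkd1, Notum, Sp5, Lef1 and Tcf7, known feedback regulators, targets and receptors of Wnt signalling, found by symbol among the 24505 genes of the nascent transcription table. The rule that picked them uses their names and no measured value, but the members were chosen with earlier results of these data known. Transcription was read by GRO-seq (global run-on sequencing of RNA made by engaged polymerase in nuclei) in mini-gut organoid cultures of mouse duodenum, with 2 libraries for each of 3 cultures. Per the labels, RANKL is the intestinal M cell culture, ENRI the enterocyte culture and WENRC the intestinal stem cell culture; M cells are the antigen-sampling cells of the gut lining. The labels do not spell out these abbreviations, name no strain, age or genotype, and do not say whether RANKL 1 and RANKL 2 came from separate animals or cultures, so p-values here measure the spread between these libraries, which may be partly technical. ENRI 1 and WENRC 1 carry the number of one mouse, and ENRI 2 and WENRC 2 that of another. The repressive histone mark H3K27me3 was compared between RANKL (2 libraries pooled) and WENRC (1 library).

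In canonical Wnt signalling, Wnt proteins bind Frizzled and Lrp receptors, β-catenin escapes destruction, and in the nucleus it joins DNA-binding proteins of the Tcf/Lef family to switch on target genes. Several of these targets act back on the pathway: Axin2 is a scaffold of the complex that destroys β-catenin, Rnf43 and Znrf3 are membrane ubiquitin ligases that remove Frizzled receptors, Nkd1 is a cytoplasmic antagonist that binds Dishevelled, and Notum is a secreted enzyme that inactivates Wnt proteins. In the intestinal crypt, Wnt signalling maintains stem cells, and R-spondins acting through Lgr receptors such as Lgr4 protect Frizzled from Rnf43 and Znrf3.

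Promoter sequences are shown for 3 members, to set beside the histone mark below: Sp5 and Lef1, whose starts lay under regions with more H3K27me3 in RANKL, and Axin2, which had no such region near its start. Each run is the 250 bases before a RefSeq start on GRCm38.p6, 5′ to 3′ on the gene's strand, at chr2:70474673-70474922 (+) for Sp5, chr3:131110047-131110296 (+) for Lef1 and chr11:108920099-108920348 (+) for Axin2. Capitals mark matches to the Tcf/Lef core motif, searched on both strands as CTTTG followed by AA, AT, TA or TT.
Sp5: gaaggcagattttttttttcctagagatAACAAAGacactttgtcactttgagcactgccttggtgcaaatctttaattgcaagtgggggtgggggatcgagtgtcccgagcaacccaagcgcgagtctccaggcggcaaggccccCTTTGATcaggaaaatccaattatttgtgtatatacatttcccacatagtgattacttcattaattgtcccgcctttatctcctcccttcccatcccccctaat
Lef1: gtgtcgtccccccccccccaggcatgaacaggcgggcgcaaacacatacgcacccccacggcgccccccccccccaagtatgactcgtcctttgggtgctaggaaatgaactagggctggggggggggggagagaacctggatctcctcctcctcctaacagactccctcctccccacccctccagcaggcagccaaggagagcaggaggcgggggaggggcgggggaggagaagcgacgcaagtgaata
Axin2: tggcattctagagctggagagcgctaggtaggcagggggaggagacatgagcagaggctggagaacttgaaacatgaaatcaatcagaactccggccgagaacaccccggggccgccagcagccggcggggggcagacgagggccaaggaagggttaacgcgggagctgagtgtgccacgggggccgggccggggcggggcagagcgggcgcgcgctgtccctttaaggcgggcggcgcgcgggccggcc
The Sp5 window held 2 matches that do not overlap, AACAAAG (the reverse complement of CTTTGTT) beginning 222 bases before the start and CTTTGAT beginning 104 bases before it. The Axin2 window and the Lef1 window printed here held 0. Another of the 4 Lef1 windows, at chr3:131156044-131156293 (+), held TACAAAG beginning 147 bases before its start. The start of Nkd1 also lay under a RANKL-higher region, and its window held 0, as did those of Rnf43, Lgr4 and Tcf7. Of 32851 mouse promoter windows of this length, 14.8% held at least 1 match and 1.43% at least 2. The Axin2 and Lef1 windows were richer in G and C (69.2% and 66.4%) than the Sp5 window (46.0%). RefSeq windows were found for 7 of the 9 members (12 windows in all), with none found for Znrf3 and Notum; a match of letters is a description of the sequence and not a measured binding site.

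The members lie on few chromosomes. Chromosome 11 carries 5 of the 9 (Axin2, Rnf43, Znrf3, Notum and Tcf7), a chromosome with 7.5% of the genes in the table; Lgr4 and Sp5 lie on chromosome 2, Lef1 on chromosome 3 and Nkd1 on chromosome 8. Rnf43 overlaps 1110028F11Rik on the same strand, so reads of these genes could not be separated; no other member overlaps a listed gene.

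All GRO-seq values are log2 values summed over the whole gene and normalized by the authors, and their read depth is unknown. Differences are the first-named culture minus the second, and a gene was called when its limma p, adjusted over the 16563 genes tested (Benjamini-Hochberg), was under 0.05. Genes were tested where at least 2 libraries reached log2 of 10, and 8 of the 9 members passed; Notum did not. Libraries of a culture were closest in RANKL, where the replicate differences had an SD of 0.220 over the tested genes, against 0.421 for WENRC and 0.699 for ENRI. The RANKL libraries are combined reads of a repeat sequencing, per the file header, so the batch and the culture cannot be told apart for RANKL.

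The marker genes of the labelled cell types were present in their cultures. RANKL had higher calls for all 8 M cell markers against ENRI and for 7 of 8 against WENRC (10.4% and 8.53% of all tested genes). Sox8 passed the filter through the RANKL libraries alone, so it had to be higher there to be tested. Gp2 reached the filter in RANKL and in ENRI 2 (3.72) only. The calls of both are given as a description. In WENRC against ENRI, 8 of 9 enterocyte markers were called lower (9.74% of all tested genes) and 5 of 6 stem cell markers higher (4.85%). The log2 of the summed stem cell markers ran from 13.6 to 13.7 in RANKL and from 13.97 to 14.03 in WENRC. It was 12.8 in ENRI 1 and 11.7 in ENRI 2, a gap that lay mainly in Cdk6 (12.47 and 10.08). Cdk6 also made up much of the sums in RANKL (12.40 and 12.52) and WENRC (12.43 and 12.55), where it was level. The single markers went both ways in RANKL over WENRC. Of the 6, 1 was called higher (Tnfrsf19, 1.69), 1 lower (Lgr5, -3.02) and 4 were not called (8.53% of all tested genes higher, 3.62% lower). RANKL also held a summed enterocyte marker level of 14.6 to 14.8, against 15.7 to 16.4 in ENRI and 12.3 to 13.3 in WENRC. Much of this sum was Sis (13.79 and 13.82 in RANKL, 12.11 and 10.66 in WENRC). Of the 9 enterocyte markers, 4 were called higher in RANKL over WENRC, 0 lower and 5 not called. Lct was lower in both RANKL libraries than in WENRC (6.57 and 6.78, against 7.30 and 7.24). Of 8 mesenchymal markers, 2 reached the filter (Pdgfrb and Acta2) in every culture, while Vim, Col1a1, Col1a2, Col3a1, Des and Pdgfra stayed below it in all libraries; the summed level was 9.5 to 9.6 in RANKL, 8.1 to 8.7 in WENRC and 8.4 to 8.6 in ENRI. Pdgfrb was highest in RANKL (9.21 and 9.26), whereas Acta2 was lowest there (6.98 and 7.11). The 5 Paneth cell markers summed to 9.6 in both RANKL libraries, 8.7 and 9.1 in WENRC, and 8.0 and 9.1 in ENRI. Cd68, a macrophage marker, had 7.84 and 7.91 in RANKL and 8.38 and 8.52 in WENRC, against 7.51 and 7.56 in ENRI, and was called higher in WENRC over ENRI (0.92, limma adjusted p = 0.0174); its part in the members' differences was not tested.

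**Figure D1:**
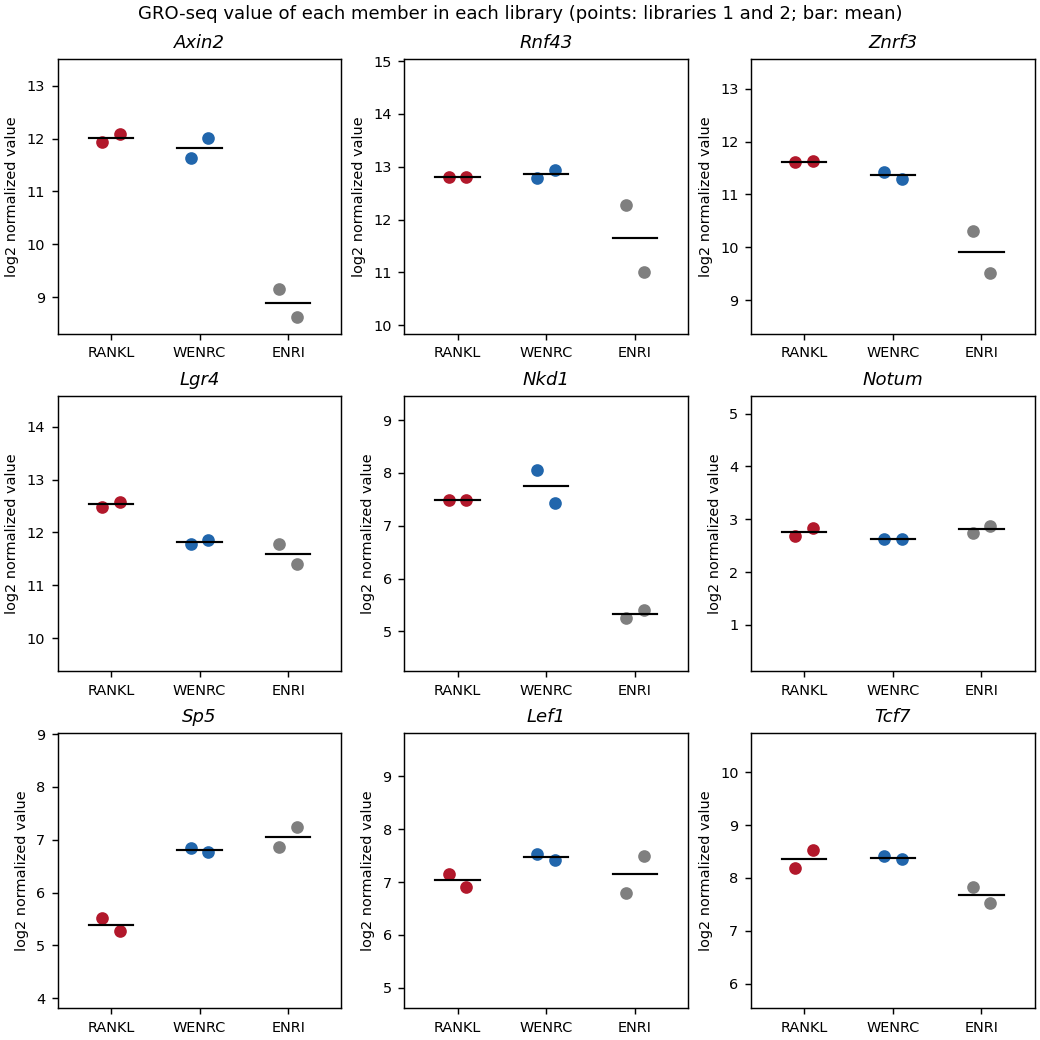
GRO-seq value of each of the 9 members in each library, on the authors' log2 scale (y axis, same span in every panel) by culture (x axis); points are libraries 1 and 2 and bars their means. Axin2, Znrf3 and Nkd1 were high in RANKL and WENRC and low in ENRI, whereas Sp5 was low in RANKL alone.

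Of the feedback inhibitors inside the cell and at its membrane, Axin2, Nkd1 and Znrf3 were called lower in the enterocyte culture than in both other cultures, and Rnf43 was not called. Axin2 (NM_015732, mm9 chromosome 11, 108781663 to 108812095, plus strand) had values of 11.93 and 12.08 in RANKL 1 and 2, 11.64 and 12.02 in WENRC 1 and 2, and 9.14 and 8.62 in ENRI 1 and 2. Both ENRI libraries lay far below the other 4, and RANKL and WENRC overlapped. The change was 3.12 in RANKL over ENRI (SE 0.23, 95% interval 2.57 to 3.68, limma adjusted p = 0.00205), an 8.72-fold difference. In WENRC over ENRI it was 2.95 (SE 0.23, interval 2.39 to 3.50, limma adjusted p = 0.00624), or 7.72-fold, with 2.50 in mouse 1 and 3.40 in mouse 2. Between RANKL and WENRC the change was 0.18 (interval -0.38 to 0.73, limma adjusted p = 0.663), and -0.32 after quantile normalization. The call over ENRI was lost narrowly without RANKL 2 (limma adjusted p = 0.0523; 0.0498 without RANKL 1), and that of WENRC over ENRI without WENRC 1 (0.0501) or WENRC 2 (0.0757).

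Nkd1 (NM_027280, chromosome 8, 91045243 to 91118786, plus strand), the Dishevelled-binding antagonist, had values of 7.49 and 7.48 in RANKL and 8.06 and 7.43 in WENRC, against 5.25 and 5.41 in ENRI. Again the ENRI libraries stood apart below the others, and RANKL fell within the range of WENRC. Nkd1 rose by 2.16 in RANKL over ENRI (SE 0.25, limma adjusted p = 0.00477), a 4.46-fold difference, and by 2.41 in WENRC over ENRI (SE 0.25, limma adjusted p = 0.00842). The mice gave 2.81 and 2.02 for the latter. In the authors' deposited table the Nkd1 changes were larger, 3.25 and 3.66; the log2 values used here appear, from their shape, to draw low genes together. Between RANKL and WENRC the change was -0.26 (interval -0.86 to 0.34, limma adjusted p = 0.542; 0.06 without WENRC 1). Calls were lost without RANKL 1 or 2 (limma adjusted p = 0.0647 and 0.0737, over ENRI) and without WENRC 1 or 2 (0.0567 and 0.0684, in WENRC over ENRI).

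Znrf3 (NM_001080924, chromosome 11, 5176332 to 5344850, minus strand) had values of 11.61 and 11.62 in RANKL and 11.43 and 11.30 in WENRC, against 10.30 and 9.51 in ENRI. It followed the order RANKL, WENRC, ENRI with no overlap between cultures, although the step from RANKL to WENRC was small. It rose by 1.71 in RANKL over ENRI (SE 0.26, limma adjusted p = 0.0108) and by 1.46 in WENRC over ENRI (SE 0.26, limma adjusted p = 0.0223; 1.13 in mouse 1 and 1.78 in mouse 2). RANKL and WENRC differed by 0.25 (interval -0.38 to 0.89, limma adjusted p = 0.575), and by -0.20 after quantile normalization. The calls were lost without RANKL 1 or 2 (limma adjusted p = 0.103 and 0.114, over ENRI) and without WENRC 1 or 2 (0.119 and 0.140, in WENRC over ENRI).

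Rnf43 (NM_172448, chromosome 11, 87476589 to 87549041, plus strand), the partner ligase of Znrf3, had values of 12.80 and 12.82 in RANKL and 12.79 and 12.94 in WENRC, against 12.28 and 11.00 in ENRI. Both ENRI libraries were the lowest, but ENRI 2 lay far below ENRI 1, which was closer to the other cultures. The change over ENRI was 1.16 in RANKL (SE 0.40, limma adjusted p = 0.0893) and 1.22 in WENRC (SE 0.40, limma adjusted p = 0.0928; 0.50 in mouse 1 and 1.94 in mouse 2), and neither passed the threshold. With a mouse term for the ENRI and WENRC libraries in the fit of all 6, the RANKL over ENRI change passed it (limma adjusted p = 0.0499); the RANKL libraries have no mouse number and carried no such term, so this block pairs nothing in RANKL and acts there through the estimate of the spread. Between RANKL and WENRC the Rnf43 change was -0.06 (interval -1.03 to 0.92, limma adjusted p = 0.946), and -0.68 after quantile normalization. Both changes also passed without ENRI 1 (1.80 and 1.86, limma adjusted p = 0.000257 and 0.000294) and without ENRI 2 (0.52 and 0.58, limma adjusted p = 0.0462 and 0.0424), where the lone ENRI library is assumed to vary like the other cultures. Axin2, Rnf43, Znrf3, Lgr4 and Tcf7 were higher in ENRI 1 than in ENRI 2, and Nkd1, Notum, Sp5 and Lef1 lower. The summed stem cell markers were higher in ENRI 1 (12.8 against 11.7), mainly through Cdk6 (12.47 against 10.08). Lgr5 (8.89 against 8.51) and Tnfrsf19 (6.57 against 6.06) were also higher there. Olfm4 (5.14 against 7.41), Smoc2 (9.49 against 10.63) and Ascl2 (4.31 against 4.55) were lower. The part of stem cells in the differences was not tested. In bulk cultures fewer cells of a type and less transcription per cell cannot be told apart.

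The calls in WENRC over ENRI need the RANKL libraries for their estimate of the spread. With only the 4 WENRC and ENRI libraries in the fit, no member was called (limma adjusted p = 0.0535 for Axin2, 0.0573 for Nkd1 and 0.0853 for Znrf3), nor was any of the 16563 genes, of which 4074 had an unadjusted p under 0.05. With the mouse as a block in those 4 libraries, Axin2 was called (limma adjusted p = 0.0484), and Nkd1 (0.0516) and Znrf3 (0.0747) were not.

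Notum (NM_175263, chromosome 11, 120515103 to 120522151, minus strand), the secreted Wnt inactivator, stayed near the bottom of the scale. Its values were 2.68 and 2.83 in RANKL and 2.63 and 2.62 in WENRC, against 2.75 and 2.87 in ENRI. No library reached the filter, the cultures lay close together, and no test was made.

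The receptor Lgr4 (NM_172671, chromosome 2, 109757804 to 109854414, plus strand) was highest in the M cell culture. It had values of 12.48 and 12.58 in RANKL and 11.78 and 11.85 in WENRC, against 11.78 and 11.40 in ENRI. Both RANKL libraries were above the other 4, among which WENRC 1 and ENRI 1 were level. Lgr4 rose by 0.94 in RANKL over ENRI (SE 0.18, interval 0.50 to 1.37, limma adjusted p = 0.0185), a 1.92-fold difference. The change over WENRC was 0.71 (SE 0.18, interval 0.28 to 1.15), just short of the threshold at a limma adjusted p of 0.0538. It passed with a mouse term for ENRI and WENRC (limma adjusted p = 0.0373), where calls over all tested genes also rose, from 2012 to 2945. Leaving out ENRI 1 or ENRI 2 cannot move this change (0.71) and alters only the shared estimate of the spread. A call gained that way is therefore no result about Lgr4. In the authors' deposited table the adjusted p for Lgr4 in this comparison was 8.88e-10. It did not pass without RANKL 1, RANKL 2, WENRC 1 or WENRC 2 (limma adjusted p = 0.286, 0.361, 0.214 and 0.195), and quantile normalization brought the change down to 0.24 (0.435). The call over ENRI was lost without RANKL 1 (limma adjusted p = 0.145) or RANKL 2 (0.181). WENRC over ENRI gave 0.23 (limma adjusted p = 0.442; -0.0005 in mouse 1 and 0.45 in mouse 2).

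Of the nuclear members, Sp5 went against the inhibitors. Sp5 (NM_022435, chromosome 2, 70312980 to 70315783, plus strand) encodes a zinc finger transcription factor induced by Wnt signalling. Its values were 5.51 and 5.27 in RANKL and 6.85 and 6.77 in WENRC, against 6.86 and 7.24 in ENRI. Both RANKL libraries were below all others, and WENRC and ENRI were close to each other. The Sp5 change was -1.42 in RANKL against WENRC (SE 0.21, 95% interval -1.94 to -0.90, limma adjusted p = 0.0133), a 2.68-fold fall on this scale. Against ENRI it was -1.66 (SE 0.21, limma adjusted p = 0.00651), a 3.15-fold fall. In the authors' deposited table the Sp5 changes were -2.47 and -2.82, larger as for Nkd1. WENRC over ENRI gave -0.23 (limma adjusted p = 0.511). Without any one of RANKL 1, RANKL 2, WENRC 1 or WENRC 2 the change against WENRC kept its sign (-1.54, -1.30, -1.38 and -1.46) and lost its call (limma adjusted p = 0.115, 0.160, 0.102 and 0.101), as did that against ENRI without RANKL 1 (0.0638) or RANKL 2 (0.0890). RANKL also had the highest summed M cell markers (13.3 to 13.4, against 9.9 to 10.8 in the other 4 libraries) and mesenchymal markers (9.5 to 9.6, against 8.1 to 8.7); their part in the Sp5 and Lgr4 changes was not tested.

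Tcf7 (NM_001313981, chromosome 11, 52065785 to 52096516, minus strand) encodes Tcf1, a DNA-binding partner of β-catenin. It had values of 8.19 and 8.53 in RANKL and 8.41 and 8.35 in WENRC, against 7.83 and 7.52 in ENRI. ENRI lay below the other cultures without overlap, and WENRC lay inside the range of RANKL. The changes were 0.69 in RANKL over ENRI (SE 0.19, limma adjusted p = 0.0508) and 0.71 in WENRC over ENRI (SE 0.19, limma adjusted p = 0.0579; 0.58 and 0.83 in the mice). Without ENRI 1 the change in RANKL over ENRI was 0.84. Both changes passed with a mouse term for ENRI and WENRC and all 6 libraries (limma adjusted p = 0.0394 and 0.0453). Calls over all tested genes also rose with that term, from 3464 to 4749 and from 2416 to 3545. Neither passed without ENRI 2 (0.0731 and 0.0818) or with only the 4 libraries compared (0.107 and 0.128), nor did WENRC over ENRI with the mouse as a block in those 4 libraries (0.135). RANKL and WENRC differed by -0.02 (interval -0.48 to 0.44).

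Lef1 (NM_001276402, chromosome 3, 130813215 to 130927275, plus strand), another DNA-binding partner of β-catenin, had values of 7.16 and 6.90 in RANKL and 7.53 and 7.42 in WENRC, against 6.80 and 7.50 in ENRI. The ENRI libraries spanned the RANKL values and reached into those of WENRC, while RANKL lay below WENRC without overlap. No comparison passed the threshold: -0.44 in RANKL against WENRC (interval -1.09 to 0.21, limma adjusted p = 0.332), -0.12 against ENRI (limma adjusted p = 0.784) and 0.32 in WENRC over ENRI (limma adjusted p = 0.464). The mice disagreed for the last, with 0.73 and -0.08.

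**Figure D2:**
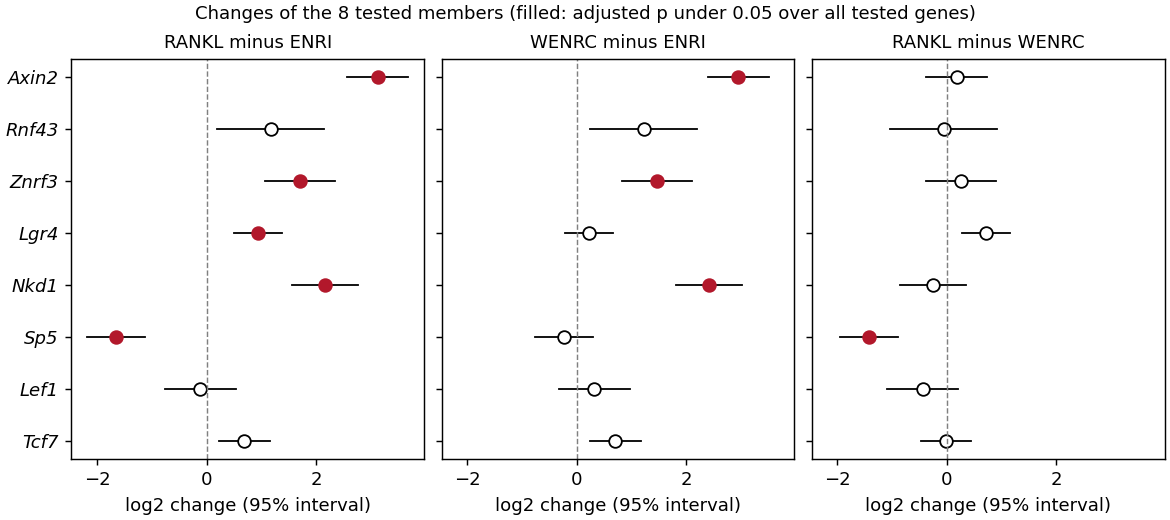
Log2 change of the 8 tested members (rows) in each comparison (panels), with 95% intervals from limma; filled points had an adjusted p under 0.05 over all tested genes. Axin2, Nkd1 and Znrf3 were called in both comparisons with ENRI, and Sp5 was the 1 member called between RANKL and WENRC.

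The members' calls were read beside those of all genes tested. In RANKL over ENRI, 4 of the 8 were called higher and 1 lower, with 3 not called; of all tested genes 20.9% were called, 10.4% higher and 10.5% lower. The median change of the 8 was 1.05, beside -0.005 for all tested genes. In WENRC over ENRI, 3 were called higher and 0 lower; of all genes 14.6% were called, 4.85% higher and 9.74% lower, and the medians were 0.96 and -0.01. In RANKL over WENRC, 0 were called higher and 1 lower; of all genes 12.1% were called, 8.53% higher and 3.62% lower, and the medians were -0.04 and -0.01. These comparisons share libraries, so they are not independent of one another. The split over all genes moved with the scaling: in RANKL over WENRC from 1412 higher and 600 lower to 1245 and 1091 after upper-quartile recentring and 1275 and 896 after quantile normalization, and in WENRC over ENRI from 803 and 1613 to 1646 and 1397, and to 1633 and 1524. The median over all genes went from -0.007 to -0.122 in RANKL over WENRC, and from -0.014 to 0.099 in WENRC over ENRI, with upper-quartile recentring.

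Levels between genes were compared per kb of gene, as the mean log2 value minus log2 of the length in kb. In RANKL the order was Axin2 (7.08), Rnf43 (6.63), Lgr4 (5.94), Znrf3 (4.22), Sp5 (3.90), Tcf7 (3.42), Nkd1 (1.29), Lef1 (0.20) and Notum (-0.06), beside a median of 3.69 over all tested genes. In WENRC the level per kb ran from 6.90 for Axin2, 6.69 for Rnf43, 5.33 for Sp5 and 5.22 for Lgr4 down to 3.97 for Znrf3, 3.44 for Tcf7, 1.54 for Nkd1, 0.64 for Lef1 and -0.19 for Notum. In ENRI Axin2 dropped to the fourth place (3.95), behind Sp5 (5.56), Rnf43 (5.46) and Lgr4 (5.0), and ahead of Tcf7 (2.73), Znrf3 (2.51), Lef1 (0.32), Notum (-0.01) and Nkd1 (-0.87). Neighbours whose levels differed by less than the sum of their SDs were Lef1 and Notum in RANKL, Axin2 and Rnf43 and likewise Sp5 and Lgr4 in WENRC, and, in ENRI, Sp5 with Rnf43, Rnf43 with Lgr4, Tcf7 with Znrf3, and Lef1 with Notum. By summed value over the gene, not per kb, Axin2 was above 98.0% of the tested genes in RANKL, 98.8% in WENRC and 69.1% in ENRI. Rnf43 and Lgr4 were above at least 96.9% in every culture.

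The genes whose pattern over the 6 libraries was most like that of Axin2 were looked for among 978 tested genes with an SD of at least 1. Pearson's r was 0.995 for Sorcs2, a sorting receptor, 0.994 for Amz1, a metallopeptidase, 0.980 for Fut1, a fucosyltransferase, 0.976 for Igdcc4, an immunoglobulin superfamily protein, and 0.966 for Car12, a membrane carbonic anhydrase. Sorcs2 had 11.69 and 11.84 in RANKL and 11.47 and 11.55 in WENRC, against 9.79 and 9.21 in ENRI. The 6 libraries fall into 3 cultures, and r describes mainly the gap between ENRI and the rest. Among the members, r with Axin2 was 0.971 for Znrf3, 0.949 for Nkd1, 0.948 for Tcf7, 0.886 for Rnf43, 0.720 for Lgr4, 0.04 for Lef1, -0.57 for Notum and -0.65 for Sp5, given as a description.

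Other genes of the pathway were followed through lists ordered by role. Calls over all genes rose in every comparison when an ENRI library was left out. The estimate of the spread then lacks the ENRI pair, the pair that differed most. List calls gained without ENRI 1 or ENRI 2 are therefore no result about these genes. Calls over all genes fell steeply when a RANKL library was left out: without RANKL 1 and without RANKL 2, 0 genes were called by limma in RANKL over WENRC (2702 and 2486 at an unadjusted p under 0.05), 111 and 64 in RANKL over ENRI, and 0 in WENRC over ENRI (4078 and 4075 at an unadjusted p under 0.05). Of the list calls below, Tnfrsf19 was left in RANKL over ENRI without RANKL 1 or without RANKL 2. In RANKL over WENRC, Lgr5 was left without WENRC 1 or without WENRC 2. Sost was also left in RANKL over ENRI without RANKL 1, and in RANKL over WENRC without WENRC 1 or without WENRC 2. But Sost passed the filter through the RANKL libraries alone and had to be higher there to be tested, so this is only a description. Over all tested genes, 12.1% were called in RANKL over WENRC (8.53% higher, 3.62% lower) and 20.9% in RANKL over ENRI (10.4%, 10.5%). In WENRC over ENRI 14.6% were called (4.85% higher, 9.74% lower). These shares stand beside the counts of every list here, and a count near its share is no result about that list. Among 18 tested ligand, secretion and R-spondin genes, RANKL over WENRC gave 3 higher and 0 lower calls. RANKL over ENRI gave 2 higher and 2 lower, and WENRC over ENRI 0 higher and 1 lower. The list medians were 0.01, 0.11 and -0.04. More of these genes were called in every comparison without ENRI 1 or ENRI 2, as over all genes, with calls both ways. Wnt3, a ligand of the crypt, averaged 8.40 in RANKL, 7.02 in WENRC and 5.84 in ENRI, and rose by 2.56 in RANKL over ENRI (limma adjusted p = 0.00569) and by 1.38 over WENRC (limma adjusted p = 0.0425). Wnt4 went the other way, with falls from ENRI of 1.85 in RANKL (change -1.85, limma adjusted p = 0.0106) and 1.83 in WENRC (change -1.83, limma adjusted p = 0.0160). Wnt10a rose by 1.21 in RANKL over ENRI and by 1.07 over WENRC (limma adjusted p = 0.0149 and 0.0280).

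Among 17 receptor genes, 4 were called lower and 1 higher in RANKL against WENRC, and 6 lower and 2 higher against ENRI, with list medians of -0.14 and -0.01. The split against ENRI depended on the ENRI libraries, with 5 lower and 5 higher without ENRI 1 and 7 lower and 1 higher without ENRI 2, and 1 call (Fzd8, lower) was left without WENRC 1 or WENRC 2. In WENRC over ENRI, 1 was higher and 1 lower (median 0.05). Lgr5, the stem cell receptor for R-spondins and a relative of Lgr4, averaged 8.80 in RANKL, 11.82 in WENRC and 8.70 in ENRI, with a change of -3.02 in RANKL against WENRC (limma adjusted p = 0.00166), where Lgr4 had 0.71. The co-receptor gene Lrp6 rose by 1.10 over WENRC (limma adjusted p = 0.00971) and by 0.54 over ENRI (0.0483). Fzd8, a Frizzled receptor gene, changed by -1.21 against WENRC and -1.17 against ENRI (limma adjusted p = 0.0137 and 0.0113).

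Of 9 tested antagonist genes, 1 was called in each RANKL comparison and 0 in WENRC over ENRI, and the list medians were 0.01 in RANKL over WENRC, 0.05 over ENRI and -0.004 in WENRC over ENRI. The called gene was Sost, a secreted inhibitor that binds Lrp receptors, with 4.95 and 5.12 in RANKL and 2.94 and 2.96 in WENRC, against 2.95 and 2.92 in ENRI. Sost passed the filter through the RANKL libraries alone and so had to differ to be tested, and its call is given as a description; the other 4 libraries lay below the filter, so the size of the change is uncertain. Of 19 cytoplasmic genes, 1 rose and 1 fell in each RANKL comparison (medians 0.32 over WENRC and 0.26 over ENRI), and 0 rose and 1 fell in WENRC over ENRI (median -0.06). More of these cytoplasmic genes were called in RANKL over WENRC without ENRI 1 or ENRI 2, as over all genes. No call was left there without any one of the other 4 libraries. Btrc, whose product marks β-catenin for degradation, rose by 1.34 over WENRC and 1.32 over ENRI (limma adjusted p = 0.00772 and 0.00578). Dact2, a Dishevelled-binding protein, changed by -1.15 and -1.77 in these comparisons and by -0.62 in WENRC over ENRI (limma adjusted p = 0.00825, 0.00235 and 0.0417).

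Among 11 nuclear cofactor genes, 3 rose and 0 fell in RANKL over WENRC (median 0.64), 4 rose and 0 fell over ENRI (median 0.34), and 0 rose and 1 fell in WENRC over ENRI (median 0.05). More of these cofactor genes were called in RANKL over WENRC without ENRI 1 or ENRI 2, as over all genes. No call was left there without any one of the other 4 libraries. Tle3, a corepressor that binds Tcf/Lef proteins, rose by 1.33 over WENRC and 1.48 over ENRI (limma adjusted p = 0.00805 and 0.00458). Tcf7l2, the main Tcf of the intestinal epithelium, rose by 1.25 over WENRC (limma adjusted p = 0.0268), and Bcl9, a β-catenin cofactor, by 1.34 over ENRI (limma adjusted p = 0.0182).

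Of 11 other intestinal Wnt targets, which include Lgr5 again, 7 rose and 0 fell in WENRC over ENRI, 3 rose and 0 fell in RANKL over ENRI, and 1 rose and 1 fell in RANKL over WENRC, with medians of 1.35, 0.89 and -0.21. Tnfrsf19 (Troy), a receptor of crypt stem cells, rose by 4.58 in RANKL over ENRI, by 2.89 in WENRC over ENRI and by 1.69 in RANKL over WENRC (limma adjusted p = 0.00104, 0.00640 and 0.0129). The target calls in WENRC over ENRI moved with the library left out. More were called higher without ENRI 1, as over all genes, and a lower call appeared without ENRI 2. Only Lgr5 and Tnfrsf19 were left without WENRC 1, and no call was left among them without WENRC 2. Rgmb, a membrane protein of BMP signalling, rose by 1.31 in RANKL and 1.68 in WENRC over ENRI (limma adjusted p = 0.00647 and 0.00840).

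**Figure D3:**
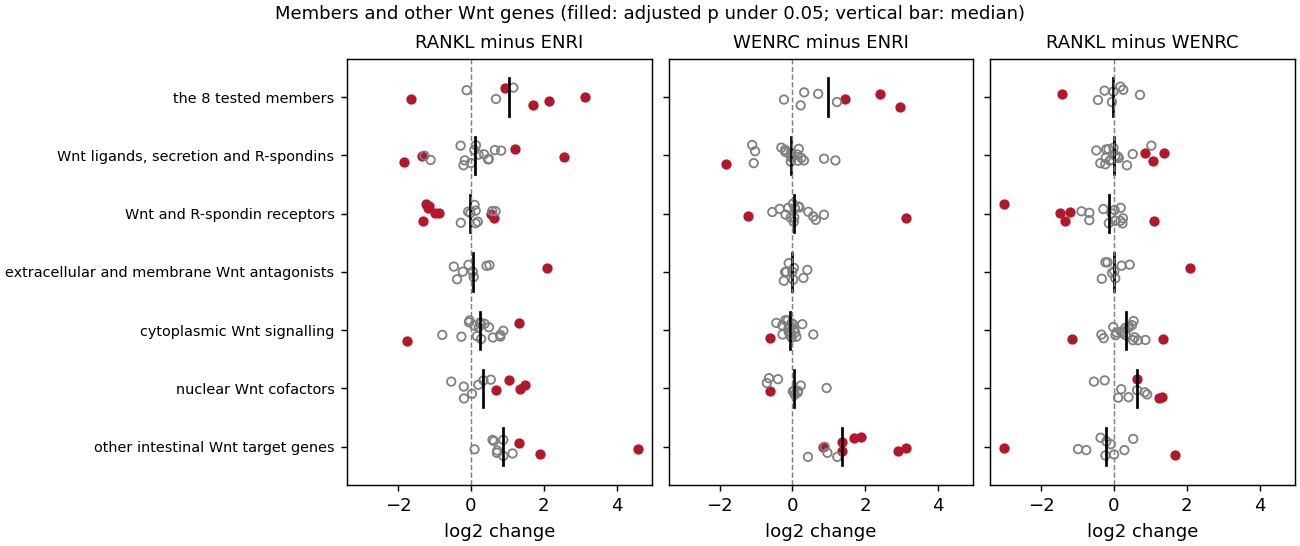
Log2 change (x axis) of each tested gene of the members and of 6 other Wnt lists (rows) in each comparison (panels); filled points had a limma adjusted p under 0.05 and vertical bars are medians. Changes of the members and of the other target genes lay mostly above 0 in the comparisons with ENRI (medians 0.89 to 1.35), and Lgr5 appears in 2 rows.

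H3K27me3, laid down by the Polycomb complex PRC2, was compared through the authors' lists of regions with at least 2-fold more tags in one culture than in the other, 35798 higher in RANKL and 13607 higher in WENRC. The authors pooled the tags of 2 RANKL libraries, and WENRC was 1 library, scaled by 0.9, so these differences have no replicate check and no test was made; intervals on a fold cover counting error only (95%, exact Clopper-Pearson). RANKL-higher regions were assigned as nearest gene to 6 of the 9 members (Axin2, Nkd1, Notum, Sp5, Lef1 and Tcf7) and to 33.7% of the genes in the table. Within 5 kb of a start they reached 5 members (Nkd1, Notum, Sp5, Lef1 and Tcf7), against 19.1% of genes. Inside the gene body they reached 5 (Rnf43, Nkd1, Sp5, Lef1 and Tcf7), against 20.7% of genes. WENRC-higher regions were assigned to 2 members, Sp5 and Lef1 (24.0% of genes), and to 0 within 5 kb of a start (5.44%) or in a gene body (9.82%).

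At Sp5, the member that fell in RANKL, a RANKL-higher region covered most of the gene. It spanned 70312161 to 70315374 on chromosome 2 (mm9), from 819 bp before its start to 2394 bp after it, covering 85.4% of the gene length, and its stretch before the start is longer than the promoter window printed above with 2 Tcf/Lef motif matches. It held 166 RANKL tags and 39.6 scaled WENRC tags (51.7 and 12.3 tags per kb), an authors' fold of 4.19 (interval 2.99 to 5.99). At 3213 bp it was longer than 98.5% of the RANKL-higher regions, whose median was 500 bp and whose median fold was 2.92, with 13.4% at 4 or more. The other 7 RANKL-higher regions assigned to Sp5 lay 138 to 183 kb upstream, in introns of another transcript. So did 3 WENRC-higher regions, nearer to the gene at 74.6 to 112 kb upstream, with folds from 3.15 to 3.96 on 18.9 to 24.3 scaled WENRC tags.

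Nkd1 carried the most regions, 17 RANKL-higher ones covering 16895 bp with 950 RANKL and 371.7 scaled WENRC tags (56.2 and 22 per kb) and folds from 2.03 to 7.04 (median 2.78). One of them lay across the start (91043752 to 91045691), with 135 against 54.0 tags and a fold of 2.50 (interval 1.83 to 3.45). The next, in the first part of the gene (91046252 to 91047809), had 108 against 53.1 tags and a fold of 2.03. In all, 7 overlapped the gene body, and the largest by tags was a 3893 bp region 66.6 kb upstream (288 against 122.4 tags, fold 2.35). The change in Nkd1 transcription between the same cultures was -0.26 (interval -0.86 to 0.34).

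At Lef1, 11 RANKL-higher regions had folds from 2.32 to 5.40 (median 3.17). A region across the start (130812728 to 130814051, annotated as 5′ UTR) had 123 against 53.1 tags, 93.0 and 40.1 per kb, and a fold of 2.32 (interval 1.68 to 3.22). Another, 3.9 kb upstream (130808410 to 130810189), had the most tags, 184 against 72.9, and a fold of 2.52. In the gene body lay 8 of the 11, and 1 more region there (130904774 to 130906553, fold 2.67) was assigned to Hadh. A single WENRC-higher region lay 13.0 kb upstream, with 18.9 scaled WENRC tags against 6 and a fold of 3.15.

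The remaining members had few regions or none near their starts. Tcf7 had 1 RANKL-higher region just inside the gene, from 255 to 1800 bp after the start (52094716 to 52096261, intron), with 67 against 23.4 tags and a fold of 2.86 (interval 1.80 to 4.69). Notum had 1, centred 4.57 kb upstream (120526392 to 120527047), with 35 against 12.6 tags and a fold of 2.78 (interval 1.46 to 5.59). Axin2 had 5, none in the gene and none within 60 kb of its start, with folds from 3.83 to 10.55 on 19 to 34 RANKL tags. In Rnf43, 3 intronic regions 24.6 to 45.1 kb after its start were assigned to the overlapping gene 1110028F11Rik (folds 4.0 to 8.15 on 18 to 23 RANKL tags). Znrf3 and Lgr4 had 0 regions of either kind.

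**Figure D4:**
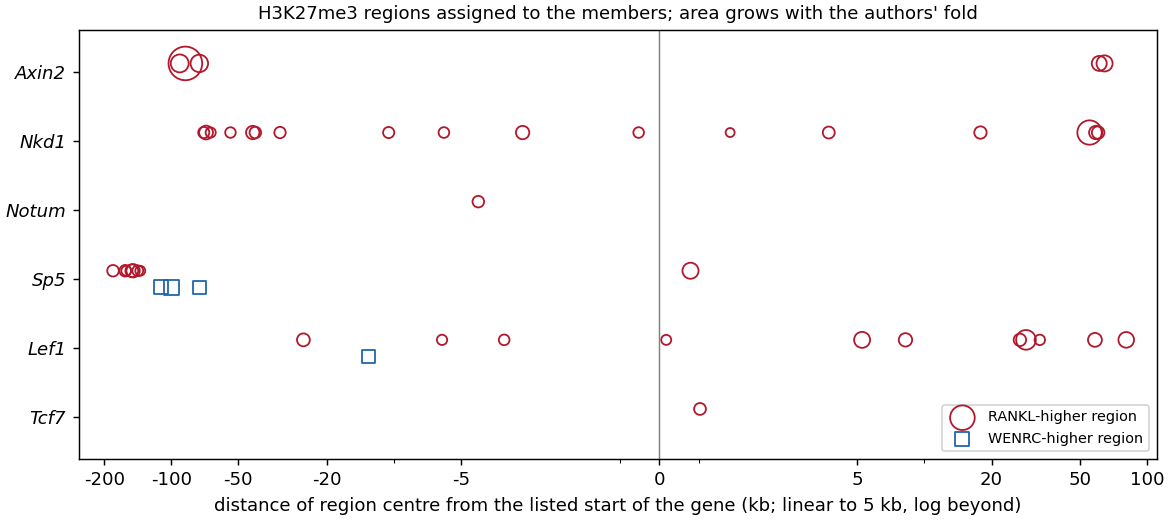
H3K27me3 regions assigned to 6 members, by distance of the region's centre from the listed start of the gene (x axis in kb, linear to 5 kb and logarithmic beyond); circles are RANKL-higher and squares WENRC-higher regions, with area growing with the authors' fold. Regions lie near the starts of Nkd1, Sp5, Lef1 and Tcf7, and all 5 of Axin2 lie over 60 kb away.

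Set side by side, the 4 members with a RANKL-higher region over or just inside their start had values of transcription in RANKL against WENRC of -1.42 (Sp5), -0.44 (Lef1), -0.26 (Nkd1) and -0.02 (Tcf7), of which the change of Sp5 alone passed the threshold. The 4 tested members without one had 0.71 (Lgr4), 0.25 (Znrf3), 0.18 (Axin2) and -0.06 (Rnf43). This order moved with the scaling: after quantile normalization the values were -1.35 (Sp5), -0.37 (Lef1), -0.21 (Nkd1) and -0.03 (Tcf7), against 0.24 (Lgr4), -0.20 (Znrf3), -0.32 (Axin2) and -0.68 (Rnf43), and the values other than that of Sp5 overlapped between the sets. With 8 genes and no replicates of the mark, no test of this difference was made. H3K27me3 in ENRI was not analysed here, and the regions say nothing of the differences from that culture.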

How the data were processed

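GRO-seq was read in 6 libraries and H3K27me3 ChIP-seq in 3. Per the submitters' processing notes the build was mm9 and the tools were Bowtie2 2.3.4.1, HOMER and DESeq2; read filters and strand handling are not given in the sources used here. Reads were summed by the authors over the full length of RefSeq genes with HOMER, per the file headers, and deposited as normalized log2 values, whose shape is that of a regularized logarithm (inferred from the values), with their own log2 changes and adjusted p-values for each pair of cultures. The authors' sign was turned to first-named minus second-named. In the deposited H3K27me3 tables, RANKL tags are whole counts, WENRC tags are a signal scaled by 0.9, and the authors' fold is a ratio of the 2 and at least 2.

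The values were tested with limma 3.58.1 (R 4.3.3), with a variance trend, 3 group means, all 6 libraries and no pseudocount, on 16563 of 24505 genes. The fit was also run on simulated data, with independent noise and the same spread of a gene in every culture. That run cannot tell how the fit handles the unequal spreads and shared mice of the real libraries. A column's number was taken as the mouse number of the titles, which gives the pairing of ENRI and WENRC; the differences between mice correlated across genes with r of 0.41 between these cultures. RANKL carries no mouse number and had no mouse term in the block. Genes in the text are the 9 members, up to 3 called genes a list with the smallest p, and the 5 genes most like Axin2. Members and lists were chosen with earlier results of these data known. Alternatives were other scalings and filters, the libraries compared alone, the mouse as a block, each library left out, and stricter region rules. Promoter windows are from RefSeq (GRCm38.p6), and coordinates in the text are otherwise mm9.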

Additional observations from a re-analysis of the deposited data

How the results depend on the processing

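Over 320 alternatives to the members' single changes, 258 kept the direction and side of the threshold, 30 lost the call, 22 gained one and 10 reversed. Many of these could not turn a direction. The filters, the mouse block, the libraries compared alone and leaving out a library of the third culture leave the change itself as it was. None of the reversed changes had been called: in RANKL over WENRC, quantile normalization turned Axin2 to -0.32 and Znrf3 to -0.20. When each library was left out, the RANKL over WENRC change ran from -0.013 (without WENRC 1) to 0.36 for Axin2, from -0.14 to 0.023 (without WENRC 2) for Rnf43, from -0.57 to 0.055 (without WENRC 1) for Nkd1, and from -0.18 to 0.15 (without RANKL 1; 0.013 without WENRC 1) for Tcf7. Lef1 ran from -0.47 to 0.23 (without ENRI 2; 0.010 without RANKL 2) in RANKL over ENRI and from -0.028 (without ENRI 1) to 0.67 in WENRC over ENRI. The cause was not tested.

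In RANKL over WENRC, 1 member was called (Sp5); 2 were called (Sp5 and Lgr4) with a filter at log2 of 100, with only the 4 libraries compared, with the mouse as a replicate block and by the authors' adjusted p, and 0 to 2 when each library was left out. In RANKL over ENRI, 5 were called, 7 with the replicate block (Rnf43 and Tcf7 added), and 0 to 7 when each library was left out, with 0 without RANKL 2 and 1 (Axin2) without RANKL 1. In WENRC over ENRI, 3 were called; quantile normalization gave 5, the 4 libraries compared alone 0, the replicate block on these 4 libraries 1 (Axin2), and leaving out each library 0 to 5. The block on all 6 libraries added Tcf7 in WENRC over ENRI. Calls over all 16563 genes moved too. With that block they went from 2012 to 2945 in RANKL over WENRC, from 3464 to 4749 in RANKL over ENRI and from 2416 to 3545 in WENRC over ENRI. The last went to 3157 with quantile normalization and to 0 with the 4 libraries alone. Shifts of the members' counts between settings are therefore no result about the members. Members with WENRC-higher regions numbered 2 as nearest gene and 0 at a fold of at least 4, within 5 kb of a start or in the gene body. For RANKL-higher regions the number was 6, and 4 to 5 under these rules.

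With 2 libraries a culture, leaving 1 out assumes that the lone library varies like the others, and fewer samples then set the spread. RANKL libraries were the closest pair and narrow the shared error. GRO-seq depth is unknown, so low genes such as Notum could not be weighed against counting error. Region folds rest on pooled or single libraries.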
